A study of Mus musculus with 4 samples.

Results

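ATAC-seq peaks that were higher in *Smyd1-KO* hearts than in WT hearts and that lay in the coding sequence (CDS) or an untranslated region (UTR) of a protein-coding gene are described here. A peak was counted when it overlapped such sequence by at least 1 bp and lay more than 3 kb from every transcription start site (TSS) in GENCODE release M21, full set of transcripts. Of the 25745 *Smyd1-KO*-enriched peaks, called gained peaks below, 448 met this rule, or 1.74% (exact 95% interval 1.58 to 1.91%). The hearts came from mouse embryos at E9.5 and either were wild type or lacked SMYD1, a lysine methyltransferase of heart and skeletal muscle, through a germline null allele, so that the loss is not limited to a cell type. Each genotype had 2 libraries, and 4 hearts were pooled for each of them, with 40000 viable cells going into the reaction. Whole hearts hold cardiomyocytes, endocardial cells and other cell types, and embryos of both sexes were used. Both libraries of a genotype were combined before peaks were called, so no value per library exists in the lists, the spread between pools is unknown, and no difference below was tested. In pooled hearts, a site that is open in more cells and a site that is more open in each cell cannot be told apart.

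In ATAC-seq the Tn5 transposase cuts DNA that nucleosomes and other proteins leave exposed, so a peak marks open chromatin and does not by itself say what an open site does. Most open sites of a genome are promoters or enhancers in introns and between genes. Exons can be open too: an exon may hold an enhancer, an unannotated promoter, a CpG island or the binding site of a factor that reads DNA inside a transcribed region. CTCF, a zinc finger protein that shapes chromatin loops together with cohesin, is an example of a factor with a long and specific binding sequence that can lie anywhere, coding exons included.

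The CTCF consensus occurred in a larger share of exonic gained peaks than of intronic gained peaks or of exon sequence, though beyond 10 kb of a TSS the interval of its share (7.1%, 3.84 to 11.8%) took in that of intronic peaks there, and 8 of its matches are printed to show the sites themselves. They are among the highest-scoring matches in named genes. Each line gives the gene, the position of the printed 30 bases on mm10 and the strand that is read 5′ to 3′. The capitals mark the 12 bases that match the consensus. The bases were read from the RefSeq copy of GRCm38.p6, whose chromosomes have the sequence of mm10.
*Slc4a3*, chr1:75559667-75559696, minus strand: caaaaaccaCCACCAGAGGGCtacacacgg
*Synpo2l*, chr14:20661153-20661182, minus strand: ttcatgcagCCACTAGGGGGCaggagttac
*Slc43a2*, chr11:75573545-75573574, minus strand: gtgagtctgCCAGCAGGGGGCactgtgatc
*Mroh6*, chr15:75884288-75884317, minus strand: cgtgtctgcCCAGCAGGTGGCgctgcttgc
*Med29*, chr7:28386665-28386694, minus strand: cagctgaaaCCAGCAGGGGGCagcagagtc
*Ubr4*, chr4:139430387-139430416, plus strand: aacagatgaCCACCAGGTGGCcctctactg
*Tecpr2*, chr12:110936425-110936454, plus strand: agatgctgtCCAGCAGATGGCagtctctcc
*Dand5*, chr8:84815722-84815751, minus strand: cgcttttagCCACTAGGTGGCaccgcgtcc

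To see where in the genes these peaks lay, they were sorted by the sequence they touched. Coding sequence was touched by 267 of the 448 peaks, or 59.6% (54.9 to 64.2%), beside 49.5% of all exon windows, the peak-sized tiles of CDS and UTR sequence beyond 3 kb. Another 178 peaks, or 39.7% (35.2 to 44.4%), touched a 3′ UTR and no coding sequence. The other 3 peaks, or 0.67%, touched a 5′ UTR alone, and 5′ UTRs made up 0.715% of the CDS and UTR bases beyond 3 kb. A last exon was touched by 268 peaks, or 59.8% (55.1 to 64.4%), among them 173 of the 178 peaks in 3′ UTRs and 94 of the 267 coding peaks. The share of exon windows that touched a last exon was 62.6%, inside that interval. Of the coding peaks, 69 also reached a 3′ UTR. Both shares depended on how a peak was assigned. When at least 75 bp of CDS or UTR was asked for, 49.1% of the peaks touched coding sequence (43.7 to 54.6%), an interval that takes in the 49.5% of windows, and 73.2% touched a last exon (68.2 to 77.9%), above the 62.6% of windows. By the base at the peak centre, 151 of 344 peaks lay in CDS, which made up 43.2% of the bases, and 249 lay in last exons, which made up 66%. With the smaller set of TSSs that GENCODE tags as basic, 705 peaks met the rule and 48.5% of them touched a last exon, and among the 111 peaks that reached the median score of the whole gained list 73% did (63.7 to 81%).

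Exonic peaks were few in number and dense per base. Sequence more than 3 kb from a TSS held 11759 gained peaks, and the 448 exonic peaks were 3.81% of them (3.47 to 4.17%), beside 4892 peaks in introns of protein-coding genes and 5673 intergenic peaks. When each peak was placed by its central base alone, 344 peaks fell within the 42.15 Mb of CDS and UTR beyond 3 kb, a density of 8.16 peaks per Mb. The rest of protein-coding gene bodies held 6.61 gained peaks per Mb and the sequence outside such genes 4.45 per Mb. The density in CDS and UTR was 1.57 times that in all other sequence beyond 3 kb, which held 5.2 peaks per Mb. For peaks at or above the list median score the ratio was 2.38. With a limit of 10 kb in place of 3 kb, exonic peaks were 2.33% of the gained peaks beyond it and the ratio was 1.51. At the 3 kb limit the density was close to even among exon parts, with 8.29 peaks per Mb in CDS, 8.08 per Mb in 3′ UTR outside CDS and 8.95 per Mb in last exons.

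**Figure D1:**
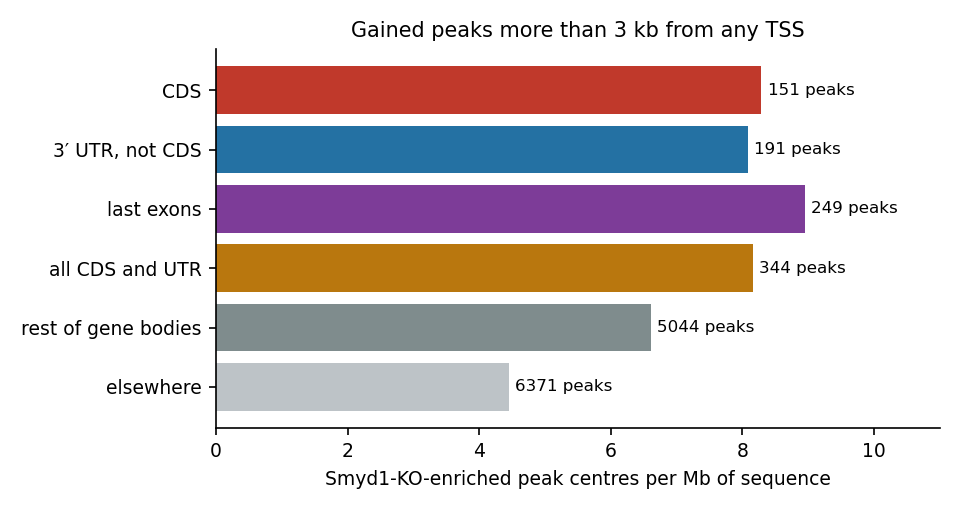
Gained peaks more than 3 kb from any TSS, as peak centres per Mb of the sequence named at the left (x axis, from 0), with the number of peaks beside each bar. Last exons overlap the CDS and 3′ UTR bars; exon sequence stood at 8.08 to 8.95 peaks per Mb, the rest of gene bodies at 6.61 and other sequence at 4.45.

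Most peaks lay inside a single exon. The exon held the whole peak in 265 cases, or 59.2% (54.4 to 63.7%), and 172 peaks, or 38.4%, crossed a splice junction. The junctions crossed were about equally often the acceptor at the start of an exon (91 peaks) and the donor at its end (97 peaks), and 16 peaks crossed both. A first exon was hit by 1 peak, but first exons start at a TSS, so the rule admitted only those longer than 3 kb. The exons hit outside last exons were short, with a median length of 158 bp, and the last exons were long, with a median of 2415.5 bp for the exon that described the peak.

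The peaks lay mostly toward the 3′ end of genes. The median peak centre stood at 0.907 of the way from the start to the end of its transcript, and 241 peaks, or 53.8%, lay within 3 kb of the transcript end. Peaks in 3′ UTRs had a median distance of 1012 bp to the transcript end, and 89 of the 178 lay within 1 kb of it. Coding peaks stood farther away, with a median of 6803 bp. The sequence open to the rule lay there too, as last exons made up 66% of the CDS and UTR bases beyond 3 kb of a TSS.

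**Figure D2:**
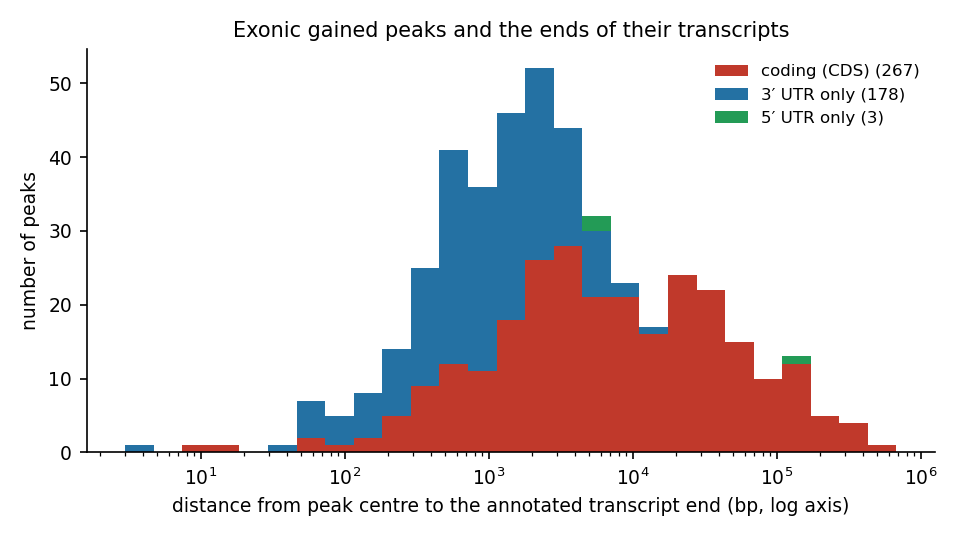
Number of exonic gained peaks (y axis) by distance from the peak centre to the annotated end of the transcript (x axis, bp, log scale), stacked by the sequence touched. Peaks in 3′ UTRs sit at a median of 1012 bp and coding peaks at a median of 6803 bp.

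The signal of a peak is given as its score, the tags the authors counted in it over the pooled *Smyd1-KO* libraries. The 448 scores ran from 32 to 8436.5 with a median of 103 and quartiles of 65 and 180. Intronic gained peaks had a median of 86.5 and intergenic gained peaks a median of 86, while gained peaks within 3 kb of a TSS had a median of 366. The median score of the whole gained list was reached or passed by 24.8% of exonic peaks (20.8 to 29%), beside 16.2% of intronic peaks (15.2 to 17.3%) and 17.6% of intergenic peaks (16.6 to 18.6%). Over all distances beyond 3 kb, the median of exonic peaks thus lay well below that near TSSs and above those of the other distal peaks. Beyond 10 kb it was not above that of intronic peaks, at 80.5 beside 82.

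Of the 3 larger classes, coding peaks in last exons had the highest median score. Coding peaks in last exons had a median score of 160 (quartiles 82.2 and 318, n = 94), whereas coding peaks in other exons had a median of 89 (quartiles 61.5 and 138, n = 173), near that of introns. Peaks of the 3′ UTR class, 170 of which lay wholly in the UTR, had a median of 100. The median of the whole gained list was reached by 43 of the 94 coding peaks in last exons, 27 of the 173 in other exons and 39 of the 178 peaks of the 3′ UTR class, so the strong exonic peaks came from all 3 places. Distance from a TSS went with the score as well. Between 3 and 10 kb the median was 120, and beyond 10 kb, where 183 of the 448 peaks lay, it was 80.5, beside 97.5 and 82 for intronic peaks over the same distances. The order of last and other coding exons was the same at both distances, with medians of 195 and 111 between 3 and 10 kb and of 102 and 76.2 beyond 10 kb. It was also the same among peaks with few CpGs, with a CpG observed to expected ratio under 0.6 (114 and 81), and among those with many (338 and 186).

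**Figure D3:**
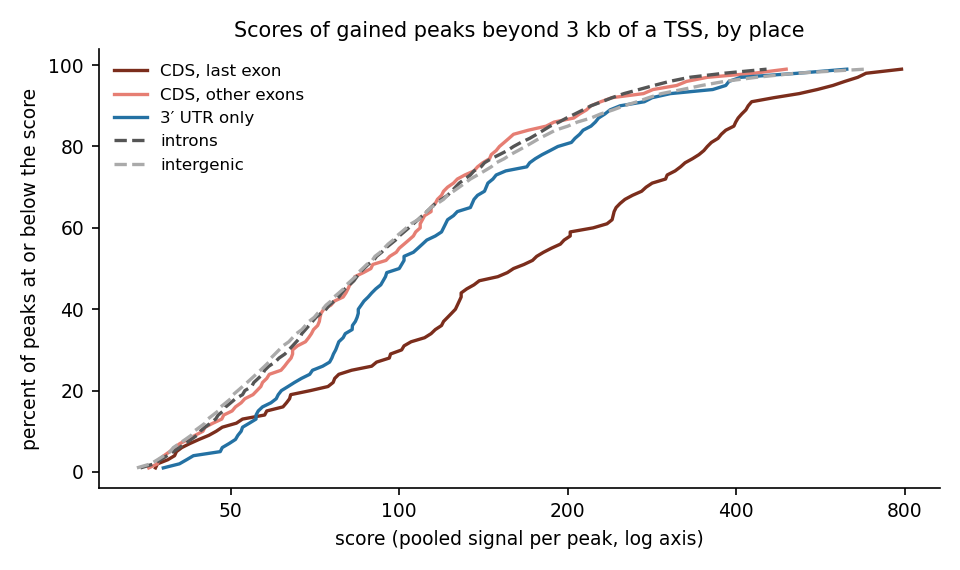
Cumulative share of gained peaks (y axis, percent) at or below a score (x axis, pooled signal, log scale) for exonic peaks by place and for intronic and intergenic peaks. The curve of coding peaks in last exons (median 160) lies to the right of the others at scores from 100 to 400, and the other medians are 86 to 100. The plot ends at the percentile 99 of each class.

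Among the 10 highest coding peaks, 8 touched a last exon and 8 had a CpG observed to expected ratio of at least 0.6, the usual lower bound for CpG islands. The highest, at a score of 874.5, lay in exon 3 of 3 of *Zfp771*, a C2H2 zinc finger gene (chr7:127254282-127254430), where the exon held the whole peak and the nearest TSS was 6279 bp away. *Sptbn4*, which encodes a beta spectrin of the membrane skeleton, held a pair of these peaks, at 825.5 in exon 33 of 36 (chr7:27361501-27361649) and at 509 in exon 14 (chr7:27408802-27408950). They were the only ones of the 10 outside last exons.

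The next peaks by score were in genes of varied function. *Prdm2*, a gene of the PRDM family of zinc finger methyltransferases, had a score of 783 (chr4:143162141-143162289), with 42 bp of the peak in exon 6 of 10 of its leading transcript and a last exon of another transcript also touched. *Sema4a*, a membrane semaphorin, had 666 (chr3:88436905-88437053) and *Bcat2*, the mitochondrial branched-chain aminotransferase, 657.5 (chr7:45589216-45589364). *Trim14*, a tripartite motif protein of antiviral signalling, had 612.5 (chr4:46507324-46507472) at 12169 bp from the nearest TSS. *Synpo*, an actin-associated protein, had 585, *St3gal2*, a sialyltransferase, had 539, and *Prrt4*, a proline-rich transmembrane protein, had 497.

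In 3′ UTRs a single peak stood far above the rest. It lay in the last exon of *Lars2*, the mitochondrial leucyl-tRNA synthetase (chr9:123461935-123462083), with a score of 8436.5. Of its 36-base words, 63.2% occur more than once in the assembled chromosomes, with up to 7 copies, and none of them occurs in the mitochondrial genome. Whether its score holds reads from the other copies was not tested. The next score in this class was 813.5, in *C87436* (chr6:86472270-86472418), where the UTR belongs to a transcript of the nonsense-mediated decay type. *Zbtb7b*, a zinc finger regulator of T cell fate, followed at 575 (chr3:89378643-89378791), the uncharacterised gene *1700066B19Rik* at 544.5 and *Gfod1*, an oxidoreductase domain protein, at 490.5 (chr13:43196068-43196216), 24567 bp from any TSS. *Slc4a3*, an anion exchanger of heart and brain, had 413.5 (chr1:75559561-75559709). The 3 peaks of the 5′ UTR class were in *Pura*, a single-stranded DNA and RNA binding protein, at 607, in *Abca1*, the cholesterol efflux transporter, at 180.5 and in *Gpr183*, an oxysterol receptor, at 69. A RefSeq transcript start lay 560 bp from the *Pura* peak and 108 bp from the *Abca1* peak. In the *Abca1* peak, 28.9% of the 36-base words were repeated, with up to 643856 copies.

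More than 10% of the words were repeated in 15 of the 448 peaks, or 3.35% (1.89 to 5.46%), beside 5.22% of all gained peaks beyond 3 kb. Without these 15 peaks the median score was 104.

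Annotated starts of a second catalogue were compared with the peaks, since a start absent from GENCODE M21 would place a promoter among the exonic peaks. A RefSeq transcript start lay within 3 kb of 32 of the 448 peaks, or 7.14% (4.94 to 9.93%), beside 6.62% of intronic and 8.51% of intergenic gained peaks. The start itself was covered by 4 peaks, or 0.893% (0.244 to 2.27%), beside 0.491% of intronic gained peaks (0.315 to 0.729%), an interval that lies within the exonic one. The 4 peaks were in *Prdm2*, *Hist1h2be*, *Sorbs3* and *Mef2c*, genes chosen for naming after these values were seen. Their scores were 783, 250, 203.5 and 45.

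At the 3 kb limit, the nearest peaks on the inner side were in the coding sequence of *Unc80* at 3011 bp with a score of 37 and of *Nfkb2* at 3023 bp with 322. The nearest exonic peaks left out were in *Sytl2* at 2997 bp with 49 and in *Sipa1l3* at 2993 bp with 114.5. Over all distances 7950 gained peaks touched CDS or UTR, and 5.64% of these (5.14 to 6.16%) lay beyond 3 kb.

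Base composition set the exonic gained peaks apart from intronic ones. Their GC content had a median of 55%, beside 52.3% in both intronic and intergenic gained peaks. The CpG observed to expected ratio had a median of 0.323, beside 0.192 in intronic and 0.212 in intergenic peaks. As a reference for exons, all CDS and UTR sequence beyond 3 kb was laid out in 301521 evenly spaced windows of the width of a peak. These windows had a median GC content of 46.3% and a median CpG ratio of 0.248, both below the values of the exonic peaks. A ratio of at least 0.6 was found in 17.6% of the exonic peaks (14.2 to 21.5%), 3.43% of intronic peaks, 8.39% of intergenic peaks and 9.15% of exon windows. It was found in 64.7% of gained peaks within 3 kb of a TSS.

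CpG-rich peaks were unevenly spread over the exon parts and had high scores. They made up 37.2% of coding peaks in last exons (27.5 to 47.8%), 16.8% of coding peaks in other exons (11.5 to 23.2%) and 7.87% of peaks in 3′ UTRs (4.37 to 12.8%). Exon sequence was itself uneven, with 13.4% of the exon windows that touched CDS and 5.03% of those that did not, and these shares lay inside the intervals of coding peaks in other exons and of peaks in 3′ UTRs. The 79 CpG-rich peaks had a median score of 220 (quartiles 130 and 387), and the other 369 had a median of 92.5 (quartiles 62.5 and 138). In introns the corresponding medians were 123 for 168 CpG-rich peaks and 86 for the rest. The highest ratio among the 10 leading coding peaks was 1.28, in *Zfp771*. *Hoxc9*, a homeobox gene of the posterior body axis, had a ratio of 1.13 and a score of 127.5.

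**Figure D4:**
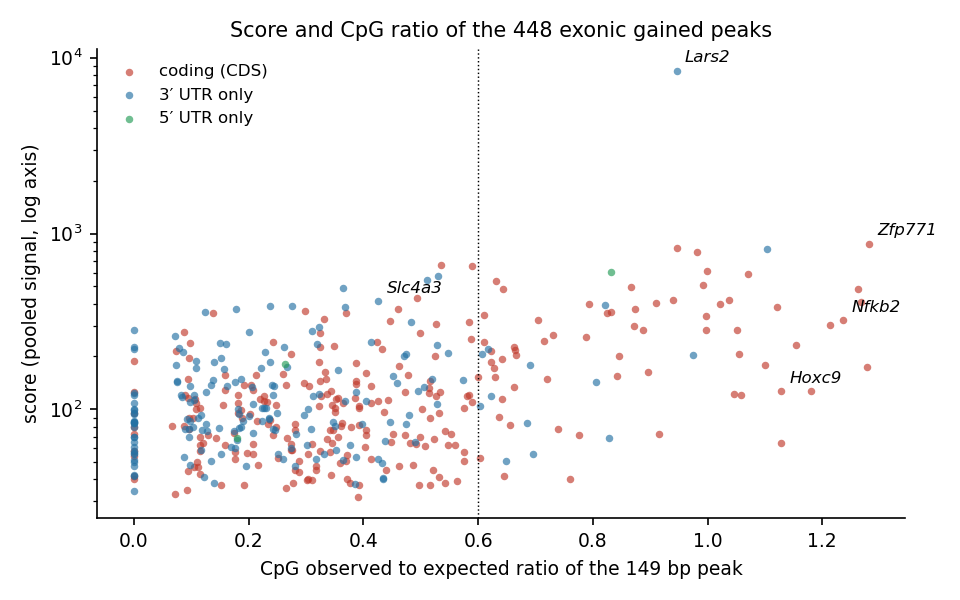
Score (y axis, pooled signal, log scale) against the CpG observed to expected ratio (x axis) for each of the 448 exonic gained peaks, coloured by the sequence touched, with 0.6 as a dotted line. The 79 peaks at or right of the line have a median score of 220, the others 92.5.

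Consensus sequences of 13 kinds of transcription factor were searched on both strands of the peaks. The CTCF consensus, of which 8 matches are printed above, was present in 49 of the 448 exonic peaks, or 10.9% (8.2 to 14.2%). It was present in 5.78% of intronic gained peaks (5.15 to 6.48%), 7.28% of intergenic gained peaks and 0.0982% of exon windows. With 1 mismatch allowed, the shares were 30.4% of exonic peaks, 17.4% of intronic peaks and 1.43% of exon windows. Peaks of the 3′ UTR class had a match in 15.2% of cases and coding peaks in 8.24%. The share moved with distance: between 3 and 10 kb of a TSS it was 13.6% of exonic (9.7 to 18.3%), 7.15% of intronic (5.96 to 8.49%) and 8.46% of intergenic peaks (7.15 to 9.93%). Beyond 10 kb it was 7.1% (3.84 to 11.8%), 5.07% (4.34 to 5.89%) and 6.81% (6.05 to 7.63%) in that order. The exonic interval overlapped the intergenic interval at both distances and the intronic interval beyond 10 kb. None of the 10 highest coding peaks had a match, and 5 of the 79 CpG-rich peaks had.

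The matches lay at a median of 25 bp from the peak centre, where a whole match can lie up to 68 bp away, and 28 of the 49 lay within 30 bp. The 12 matching bases touched coding sequence in 9 cases, a 3′ UTR in 26 and neither in 14, where the peak reached over the edge of its exon. They read along the strand of the gene in 28 of the 49 cases. Peaks with a match had a median score of 110 and peaks without a match 102.

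The 8 printed sites came from genes of different kinds. *Slc4a3* (413.5) and *Slc43a2* (370), an amino acid transporter, had their match in the 3′ UTR, as did *Med29* (237), a Mediator subunit, and *Dand5* (206), an inhibitor of Nodal that sets left and right in the embryo. *Synpo2l* (374.5), a Z-disc protein of striated muscle, had it in coding sequence, as did *Mroh6* (258.5) and *Tecpr2* (214), a gene linked to autophagy. In *Ubr4* (230.5), a ubiquitin ligase, the peak touched exon 48 of 106 and the match lay beside the exon. In *Tecpr2* and *Dand5* the match sat at the centre of the peak, at a distance of 0 bp.

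Of the shorter sequences, those of GATA, TEAD, MEIS, NKX2-5 and AP-1 factors were less frequent in exonic than in intronic gained peaks, whereas that of T-box factors, which include regulators of heart development, was not. The letters AGATAA, read by GATA factors, were found in 8.93% (6.46 to 12%) against 15.3% (14.3 to 16.4%), and GGAATG, read by TEAD factors, in 10.9% against 15.4%. The MEIS letters TGACAG were found in 15.4% against 22.4%, NKX2-5 (TNAAGTG) in 6.47% against 11.4% and AP-1 (TGANTCA) in 2.46% against 5.99%. In exon windows these shares were 7.61% for GATA, 8.01% for TEAD, 11.2% for MEIS, 8.22% for NKX2-5 and 3.89% for AP-1, so the exonic peaks stood nearer to exon sequence than intronic peaks did. The T-box letters AGGTGT were found in 9.15% of exonic peaks (6.65 to 12.2%), 7.62% of intronic peaks (6.9 to 8.4%) and 8.06% of exon windows. By class they were found in 11.6% of coding peaks (8.03 to 16.1%) and 5.62% of peaks of the 3′ UTR class (2.73 to 10.1%). Both intervals take in the 8.06% of windows. The SP sequence CCCGCCC, common in promoters, was more frequent, with 8.48% of exonic peaks, 3.64% of intronic peaks and 0.964% of exon windows.

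The remaining sequences differed less or were rare. NFY (GATTGG) was found in 4.69% of exonic and 4.05% of intronic peaks and ETS (CCGGAAG) in 1.56% and 0.94%. The hypoxia element (TACGTG) and the MEF2 consensus each occurred in 4 exonic peaks, or 0.893%, and the SRF consensus in 2. Of the exonic peaks, 39.3% held none of the 13 sequences, beside 33.5% of intronic peaks. A consensus match describes the letters of a peak and is not a bound site.

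**Figure D5:**
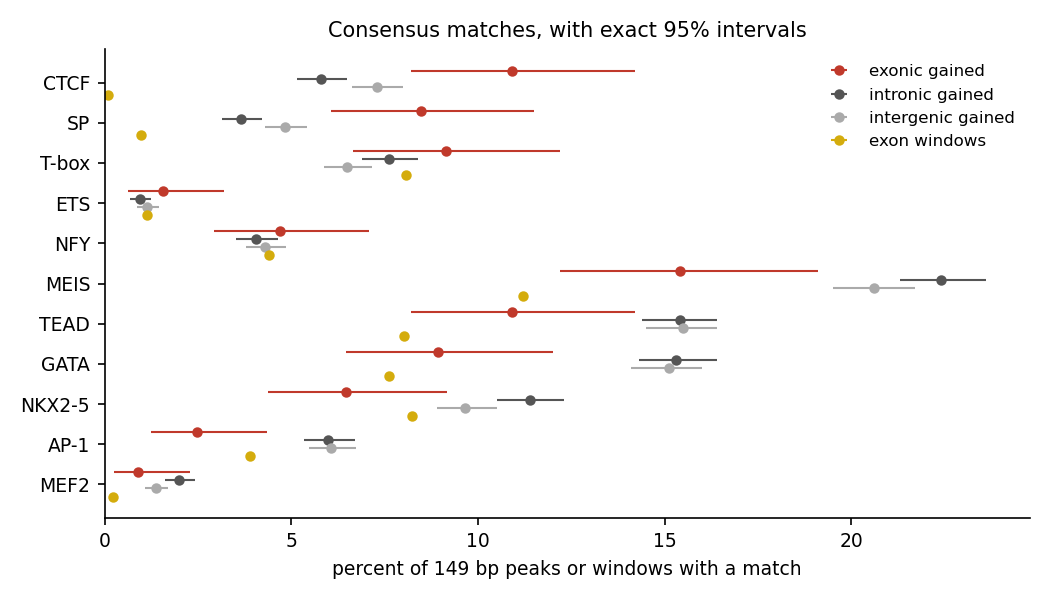
Percent of peaks or windows of equal width (x axis, from 0) with a match to 11 of the consensus sequences searched, for exonic, intronic and intergenic gained peaks and for all exon windows beyond 3 kb. Points are shares and bars exact 95% intervals, which cover counting error only; exonic peaks stand at 10.9% for CTCF and 8.93% for GATA.

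The 448 peaks touched 457 protein-coding genes, which is 2.76% of the 16543 genes with any CDS or UTR sequence beyond 3 kb. The number of genes exceeds that of peaks because 1 peak on chromosome 18, with a score of 242, lay in an exon shared by 21 genes of the gamma protocadherin cluster. A single peak was the rule, and 14 genes held more than 1. *Fto*, an RNA demethylase gene, held 3, all in 3′ UTRs: those at chr8:91525477-91525625 (score 121.5) and chr8:91524552-91524700 (107) lay in its exon 8 of 8, and that at chr8:91444005-91444153 (85.5) lay in exon 4 of 4 of another transcript.

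Other genes with a pair of peaks included *Sptbn4*, described above, and *Ccdc92b*, a coiled-coil gene, whose peaks of 420.5 and 312.5 shared exon 4 of 4. *Srcin1*, an inhibitor of Src kinase, had 232.5 and 216 in coding exons 12 and 5 of 20. *Dst*, the cytoskeletal linker dystonin, had 207 and 99 in exons 47 and 53 of 98, the second with a CTCF match. *Faim2*, an inhibitor of apoptosis, had 172 in the coding part of its last exon and 113.5 in its 3′ UTR. *Tmem120b*, a membrane protein gene, had 106.5 in a coding exon and 142 where UTRs of *Tmem120b* and *Rhof* overlap, and *Prpf19*, a splicing factor, had 136 and 91.5 in its 3′ UTR.

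Genes with an exonic gained peak were set beside the gained peaks at promoters. A gained peak within 3 kb of an own TSS was found for 289 of the 457 genes, or 63.2% (58.6 to 67.7%), beside 54.9% of all 16543 genes. These genes had more exon sequence beyond 3 kb, with a median of 3523 bases against 1948. Among the 4142 genes with at least 3523 such bases, 67.8% (66.4 to 69.2%) had a gained promoter peak, but these are longer than many of the genes with an exonic peak, and genes of matched length were not compared. Counted per peak, 65.2% of the 448 peaks lay in a gene with a gained promoter peak. When the list was limited to scores from its median upward, 111 exonic peaks were left, and 63 of their 128 genes, or 49.2% (40.3 to 58.2%), had a gained promoter peak of that strength, beside 48.5% of all genes. The single peak of the gamma protocadherins added 21 of these genes, and without it the share was 57.9% (48 to 67.4%).

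Lists of genes were then compared with the share of 2.76% for all genes. Only genes with CDS or UTR sequence beyond 3 kb were counted. Genes with a zinc finger symbol (Zfp, Zscan, Zkscan, Zbtb, Znf or Zik), many of which carry their fingers in a long last exon, held a peak in 7 of 424 cases, or 1.65% (0.666 to 3.37%), namely *Zfp771*, *Zbtb7b*, *Zfp697* (396), *Zfp385a* (361.5), *Zbtb40*, *Zbtb46* and *Zscan22*. Zinc finger genes with other symbols, such as *Prdm2*, are outside that list. Genes of the sarcomere held a peak in 2 of 25 cases (0.984 to 26%). They were *Synpo2l* at 374.5 and *Ttn*, the giant spring protein titin, at 58.5, where 9 bp of exon 15 were touched. Cardiac transcription factors did so in 2 of 22 cases (1.12 to 29.2%), *Mef2d* at 273.5 in exon 4 of 11 and *Mef2c* at 45 in its last exon. Both encode MEF2 factors of muscle differentiation. The intervals of the sarcomere and cardiac transcription factor lists take in 2.76%. By overlap, sarcomere genes held 9.54 peaks per Mb of exon sequence beyond 3 kb and cardiac transcription factors 26.7, beside 10.5 for all genes.

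Collagen genes held a peak in 2 of 44 cases (0.555 to 15.5%), *Col4a2* of basement membranes at 141.5 in exon 34 of 48 and *Col8a1* at 33. Chromatin modifiers did so in 1 of 45 cases (0.0562 to 11.8%), *Kmt2a*, a histone H3 lysine 4 methyltransferase, at 49.5. Hox genes, which are short, had sequence beyond 3 kb in 5 cases and a peak in 1, *Hoxc9* (0.505 to 71.6%). These intervals also take in 2.76%. Protocadherins held a peak in 21 of 60 cases, all through the single peak of the gamma cluster. Among listed genes with CDS or UTR sequence beyond 3 kb, no peak was found in 15 glycolysis, 20 hypoxia response or 22 angiogenesis genes. Nor was any found in 13 endothelial and endocardial, 12 erythroid or 11 epicardial and mesenchymal markers with such sequence. The full lists named 22, 26, 24, 16, 15 and 13 genes in that order. Listed genes without such sequence could not have held a peak. A count of 0 allows shares of up to 21.8%, 16.8%, 15.4%, 24.7%, 26.5% and 28.5% in that order, all above 2.76%, so these lists are too short to show a lower share. They do not hold every gene of a pathway: *Hk3*, a hexokinase gene outside the glycolysis list and named after its value was seen, had a coding peak of 111. *Smyd1* and *Naca*, a SMYD1 partner, had none, and neither did *Vegfa*, *Hk2* and other genes that the study singled out. Of these, *Sox17* had no CDS or UTR base beyond 3 kb and could not have held such a peak.

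The peaks were spread over all autosomes, with 11 to 45 per chromosome. Chromosome X held 2 of the 448, or 0.338% of its 591 gained peaks, beside 1.74% over the genome, and chromosome Y held 0 of 7.

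In the opposite direction, peaks higher in WT hearts gave no member. None of the 106 WT-enriched peaks overlapped CDS or UTR beyond 3 kb of a TSS (0%, upper limit 3.42%), nor did any of the 82 that lay beyond 3 kb (upper limit 4.4%). The corresponding shares of the gained list were 1.74% and 3.81%, both within these limits, so a lower share in the WT-enriched list was not detectable with so few peaks.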

How the data were processed

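Reads were aligned to mm10 by the authors with BWA-MEM, and peaks that differed between genotypes were called with HOMER on the combined libraries of each genotype. The deposited value of each peak, all of equal width, is a signal, the authors' pooled tag count in the genotype where the peak was higher, in steps of 0.5 for *Smyd1-KO*. Tags in the other genotype and library depths are not used here, and the treatment of duplicate and multiply mapped reads is not given in the sources used here. Distances ran from the nearer peak edge to the nearest GENCODE M21 TSS. A peak touching several parts was classed as CDS, then 3′ UTR, then 5′ UTR. Repeated sequence was measured as 36-base words found more than once in 21 chromosomes. The CpG ratio is the observed CpG count over that given by C and G content. The CTCF, MEF2 and SRF consensus sequences hold ambiguous bases and are named only. Shares carry Clopper-Pearson 95% intervals, which cover counting error only, and peaks are not replicates. The peaks, gene lists and named genes (the highest scores per class, list and CTCF match, and genes with most peaks) were chosen with earlier results of these data known. The functions were tested on simulated data. Python 3.11.15, numpy 2.4.6, scipy 1.17.1 and pandas 2.3.3 were used.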

Additional observations from a re-analysis of the deposited data

How the results depend on the processing

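Of 11 results, all kept their value within its interval (counts within 1.5 times) under TSSs of protein-coding genes, protein_coding transcripts, autosomes, sequence without repeats and, chosen after seeing the data, RefSeq starts added to the TSSs. The others moved as follows, and the cause was not tested. TSSs of basic transcripts gave 705 peaks, 5.49% of peaks beyond 3 kb, a density ratio of 1.8, 48.5% in last exons, a median score of 122, 56.4% GC and 75.1% of genes with a promoter peak. A limit of 1 kb gave 4.78%, a score of 122, 56.4% GC, a CpG ratio of 0.351 and 71.7% with a promoter peak. A limit of 10 kb gave 183 peaks, 2.33%, 53% in last exons, a score of 80.5, 53.7% GC and 7.1% with CTCF. An overlap of 75 bp gave 2.89%, 49.1% in CDS, which ends the excess over exon windows, and 73.2% in last exons, which is above them. Scores at or above the list median gave 111 peaks, 5.44%, a density ratio of 2.38, 73% in last exons, a score of 282, 61.7% GC, a CpG ratio of 0.528 and 49.2% with a promoter peak. With 1 mismatch, 30.4% had CTCF. The WT-enriched count stayed 0 throughout. No paired analysis was possible because the lists pool the libraries, and for that reason no replicate could be left out. The lists give no depth per library; the study's methods give 1 nominal depth for all samples.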
